A study of Mus musculus with 6 samples.

Results

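Cytosolic ribosomal proteins are the protein subunits of the ribosomes that translate nuclear-encoded messages in the cytosol. They were taken from the deposited expression table by gene symbol: every symbol made of Rpl or Rps and a number, alone or with an added a, x, l or l1, together with Rplp0, Rplp1, Rplp2 and Rpsa. This rule found 84 of the 22173 gene symbols, 53 of the large subunit (Rpl and Rplp) and 31 of the small subunit (Rps and Rpsa). Of the 84, 76 were core genes and 8 were paralogs with a symbol ending in l or l1. The tissue was liver from wild-type mice, measured by RNA-seq in 3 DDK-treated and 3 vehicle-treated animals. Mice of both groups were 6 weeks old when the HFHC diet began and stayed on it for 16 weeks. DDK or vehicle was given during the last 4 of those weeks. The series title calls DDK a limonoid, a class of plant triterpenoid, and no group on another diet was analysed here. The labels name no sex, strain or batch, and beyond the animal counts in the design text nothing describes how the mice were housed or sampled. The libraries held 28756915, 26576291 and 30237490 fragments for DDK 1 to 3, against 36105315, 34172473 and 33963898 for vehicle 1 to 3, as recovered from the steps between FPKM values.

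A eukaryotic ribosome joins a small subunit, which reads the message, to a large subunit, which forms the peptide bonds and holds the exit tunnel. Each core ribosomal protein is needed in about equal number, so its genes are usually expressed together, and their messages begin with a terminal oligopyrimidine (TOP) tract, a run of C and T at the start, through which mTORC1 and Larp1 control their translation. The liver makes large amounts of secreted protein, and its hepatocytes are rich in ribosomes.

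Ribosomal protein transcripts were higher in the livers of DDK-treated mice. Of the 84 genes, 81 passed the filter on low values (an FPKM of at least 0.5 in 3 or more libraries, where FPKM counts fragments relative to a gene's length and the library's depth), and 62 of these 81 rose while 0 fell. A gene was called where limma gave a Benjamini-Hochberg adjusted p under 0.05, computed on log2(FPKM + 1) over all 10681 genes tested. Over all genes tested, 10.2% were called higher and 30.3% were called lower, against 76.5% of the ribosomal protein genes called higher. The median log2 fold change of the 81 genes was 0.82, with quartiles of 0.43 and 1.06 and a range of -0.41 to 1.70, against a median of -0.23 over all genes tested. The groups did not overlap in 69 of the 81 genes: every DDK value lay above every vehicle value in 67, and every DDK value lay below in 2, Rpl3 and Rpl7l1. Over all genes tested these shares were 14.1% and 39.2%. Median-ratio scaling moved the median of all genes to 0.00 and the ribosomal median to 1.13, with 68 genes higher and 0 lower. It called 1968 genes higher and 1643 lower over all genes, in place of 1093 and 3234. In bulk tissue, fewer cells of a type and less RNA per cell cannot be told apart, and this holds for every value given here.

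**Figure D1:**
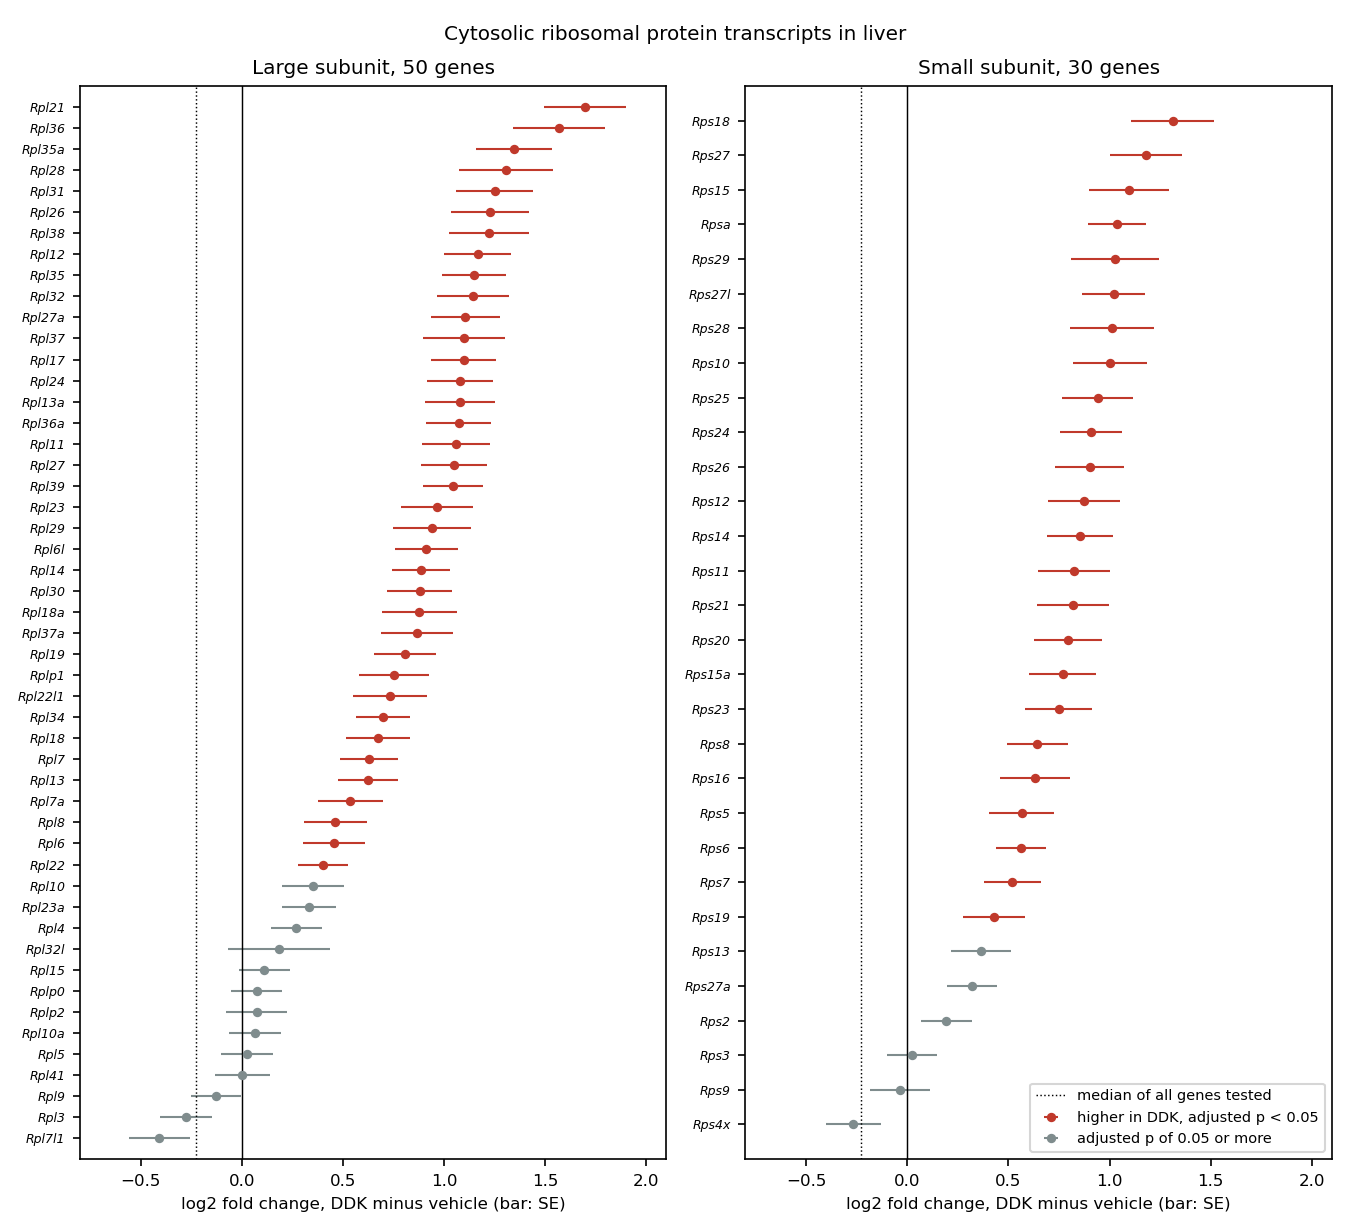
Log2 fold change (DDK minus vehicle, on log2(FPKM + 1)) of 80 of the 81 ribosomal protein genes tested, with bars for the standard error of the limma fit, for 50 large subunit and 30 small subunit genes; the dotted line is the median of all genes tested. Genes called higher (37 large, 24 small among those drawn) fill the upper part of each panel, and the genes not called run down to Rpl7l1 at -0.41.

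The largest changes were in Rpl21 and Rpl36, both core proteins of the large subunit. Rpl21 had 161.5, 160.3 and 111.7 FPKM in DDK livers, against 57.2, 39.5 and 35.7 FPKM in vehicle livers. All DDK livers lay far above all vehicle livers, and DDK 3 was the lowest of its group. The mean was 144.5 ± 28.4 FPKM with DDK and 44.1 ± 11.5 FPKM with vehicle (SD, n = 3 each), a log2 fold change of 1.70 ± 0.20 (SE, adjusted p = 0.000737). Rpl36 had 835.8, 830.8 and 526.9 FPKM in DDK livers, against 320.5, 200.5 and 215.1 FPKM in vehicle livers. The groups again did not overlap, and its log2 fold change was 1.57 ± 0.23 (adjusted p = 0.00151). Rpl21 has 56 annotated pseudogene copies that match at least 95% of the bases over at least 80% of its coding sequence, and no source used here says how fragments matching several copies were counted.

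A small subunit gene with a change of similar size was Rps18, which encodes a protein of the subunit's head. Rps18 had 1891, 1755 and 1316 FPKM in DDK livers, against 864.6, 579.8 and 567.6 FPKM in vehicle livers. The groups were well apart, vehicle 1 was the highest of the controls here too, and the log2 fold change was 1.31 ± 0.21 (adjusted p = 0.00197). Only Rplp1 had a higher mean FPKM among the ribosomal protein genes tested.

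Other genes among the 8 largest changes belong to the large subunit. Rpl35a, mutated in some families with Diamond-Blackfan anaemia in humans, had 1217, 1118 and 868.0 FPKM in DDK livers, against 523.1, 386.7 and 354.7 FPKM in vehicle livers (log2 fold change 1.34 ± 0.19, adjusted p = 0.00136). Rpl28 had 1430, 1315 and 884.5 FPKM in DDK livers, against 650.3, 397.7 and 421.9 FPKM in vehicle livers (log2 fold change 1.31 ± 0.23, adjusted p = 0.00321). In both genes the groups were apart and DDK 3 was the lowest treated liver. Rpl31 and Rpl26, which lie at the rim of the exit tunnel, changed by 1.25 ± 0.19 (adjusted p = 0.0018) and 1.23 ± 0.19 (adjusted p = 0.00198) on the log2 scale.

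The large subunit's stalk, where elongation factors bind, held both called and uncalled genes. Rplp1, an acidic stalk protein, had 2196, 1994 and 1535 FPKM in DDK livers, against 1249, 1059 and 1058 FPKM in vehicle livers. All DDK values were the higher ones, with a log2 fold change of 0.75 ± 0.17 (adjusted p = 0.00855). Its partner Rplp2 had 544.4, 487.5 and 402.8 FPKM in DDK livers, against 488.9, 413.0 and 454.4 FPKM in vehicle livers. These values overlapped, and the log2 fold change of 0.07 ± 0.15 did not pass the test (adjusted p = 0.715). Rplp0, which anchors both to the ribosome and often serves as a reference gene in quantitative PCR, had 426.1, 403.0 and 376.9 FPKM in DDK livers, against 407.0, 375.6 and 362.5 FPKM in vehicle livers. Its groups overlapped as well (log2 fold change 0.07 ± 0.13, adjusted p = 0.655).

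Rpl5 and Rpl11 join the 5S rRNA in one particle, which also binds Mdm2, the ubiquitin ligase of p53. Rpl11 had 459.4, 441.1 and 358.3 FPKM in DDK livers, against 248.4, 176.5 and 180.8 FPKM in vehicle livers. It rose without overlap of the groups, by 1.06 ± 0.17 on the log2 scale (adjusted p = 0.00206). Rpl5 had 166.0, 138.2 and 161.1 FPKM in DDK livers, against 161.6, 152.5 and 141.4 FPKM in vehicle livers. Its groups overlapped (log2 fold change 0.03 ± 0.13, adjusted p = 0.875), and its sign turned with quantile normalization (-0.02) and with rescaling to TPM (-0.21).

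Among small subunit proteins with roles of their own, Rpsa, also known as the laminin receptor precursor, had 613.9, 549.3 and 490.6 FPKM in DDK livers, against 300.9, 260.3 and 243.9 FPKM in vehicle livers. The groups were well apart (log2 fold change 1.04 ± 0.14, adjusted p = 0.00132). Rps6, the substrate of the S6 kinases downstream of mTORC1, had a log2 fold change of 0.56 ± 0.12 and was higher (adjusted p = 0.00735). Rps27a, made as a fusion with ubiquitin, had 333.6, 315.7 and 366.9 FPKM in DDK livers, against 284.5, 260.6 and 267.5 FPKM in vehicle livers. Each DDK value was above each vehicle value, but the log2 fold change of 0.32 ± 0.12 did not pass the test (adjusted p = 0.0651).

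A minority of the genes did not pass the test in either direction: 13 of the large subunit (Rpl3, Rpl4, Rpl5, Rpl7l1, Rpl9, Rpl10, Rpl10a, Rpl15, Rpl23a, Rpl32l, Rpl41, Rplp0 and Rplp2) and 6 of the small subunit (Rps2, Rps3, Rps4x, Rps9, Rps13 and Rps27a). Rpl3, a core protein beside the peptidyl transferase centre, had 152.5, 132.7 and 141.8 FPKM in DDK livers, against 154.7, 186.3 and 176.7 FPKM in vehicle livers. All DDK values were below all vehicle values, the reverse of most of the family. The log2 fold change was -0.27 ± 0.13 (adjusted p = 0.111), and 0.04 under median-ratio scaling. Rpl3 was called lower with TPM (adjusted p = 0.0145), with library weights (adjusted p = 0.0284) and without vehicle 1 (adjusted p = 0.0323).

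Rps4x, the X-linked form of a small subunit protein, had 212.9, 170.4 and 170.9 FPKM in DDK livers, against 231.8, 221.3 and 210.9 FPKM in vehicle livers. DDK 1 lay inside the vehicle range (log2 fold change -0.27 ± 0.13, adjusted p = 0.134, and 0.04 under median-ratio scaling). Rpl9 had 280.1, 250.8 and 268.3 FPKM in DDK livers, against 299.2, 274.8 and 299.0 FPKM in vehicle livers. Here too the groups overlapped, with a log2 fold change of -0.13 ± 0.12 (adjusted p = 0.418) that was 0.18 under median-ratio scaling. Rps4x was called lower with quantile normalization (adjusted p = 0.0463) and with TPM (adjusted p = 0.00992), and so was Rpl9 (adjusted p = 0.0328 and 0.0299), which was also called lower with the length correction (adjusted p = 0.00849).

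Rps9, at the entry of the message channel, had 539.8, 506.6 and 417.1 FPKM in DDK livers, against 544.7, 456.7 and 494.3 FPKM in vehicle livers (log2 fold change -0.04 ± 0.15, adjusted p = 0.86). The groups overlapped, although quantile normalization (adjusted p = 0.0211) and the length correction (adjusted p = 0.0103) called it lower. Rps3, its neighbour there, had 200.9, 197.2 and 192.3 FPKM in DDK livers, against 192.0, 178.4 and 211.9 FPKM in vehicle livers (log2 fold change 0.02 ± 0.12, adjusted p = 0.896). Rpl41, the smallest ribosomal protein, had 959.0, 801.7 and 885.1 FPKM in DDK livers, against 910.2, 878.6 and 845.3 FPKM in vehicle livers (log2 fold change 0.00 ± 0.14, adjusted p = 0.987). Both genes overlapped between groups, and the length correction called Rpl41 lower (-0.73, adjusted p = 0.00599).

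The first bases of the transcripts are shown for genes at both ends of this order, because a TOP tract at the start is the shared sequence feature of ribosomal protein messages. Each line gives 15 bases before and 15 from the annotated start of transcription on the gene's own strand (RefSeq, GRCm38.p6), with the longest run of C and T in capitals, searched from 10 bases before to 20 from the start. From the 8 largest changes, the genes with a sequence to show are Rpl35a at chr16:33056467-33056496 (plus strand, 1 of its 3 annotated starts), Rps18 at chr17:33955651-33955680 (minus), Rpl28 at chr7:4792950-4792979 (plus), Rpl31 at chr1:39367836-39367865 (plus) and Rpl26 at chr11:68901551-68901580 (plus).
Rpl35a: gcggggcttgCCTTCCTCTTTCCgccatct
Rps18: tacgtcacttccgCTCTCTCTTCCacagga
Rpl28: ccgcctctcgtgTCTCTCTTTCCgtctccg
Rpl31: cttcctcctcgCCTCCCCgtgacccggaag
Rpl26: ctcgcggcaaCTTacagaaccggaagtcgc

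From the 8 smallest changes they are Rpl7l1 at chr17:46782642-46782671 (minus), Rps4x at chrX:102189377-102189406 (minus), Rpl9 at chr5:65391417-65391446 (minus), Rps9 at chr7:3704026-3704055 (plus), Rpl41 at chr10:128549154-128549183 (minus), Rps3 at chr7:99483695-99483724 (minus) and Rpl5 at chr5:107900513-107900542 (plus).
Rpl7l1: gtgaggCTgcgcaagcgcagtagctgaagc
Rps4x: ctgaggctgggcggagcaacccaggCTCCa
Rpl9: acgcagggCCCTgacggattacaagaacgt
Rps9: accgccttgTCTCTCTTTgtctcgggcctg
Rpl41: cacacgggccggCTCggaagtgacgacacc
Rps3: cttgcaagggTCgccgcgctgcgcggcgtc
Rpl5: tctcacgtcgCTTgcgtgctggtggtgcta

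A run of 8 or more C and T lay at the annotated start in 3 of the 5 genes with large changes and in 1 of the 7 with small changes, Rps9. Over all matched ribosomal protein genes, the RefSeq table held 75 starts of 63 of the 84 genes. Such a run was present at 25 of these 75 starts (33.3%), against 11.2% of all 32851 starts in the table. By gene, 21 of 44 genes called higher (47.7%) and 4 of 16 tested and not called had one. These are descriptions of the annotated starts, whose exact base can be off by several positions or more, and the difference between the called and uncalled genes was not tested. The window printed for Rpl26, for one, ends before the start of that gene in GENCODE M21 (chr11:68901583). The ETS-type core CCGGAAG, searched on both strands of the 300 bases around each start, lay in 34.7% of ribosomal protein windows against 8.9% of all windows, in 20 of 44 genes called higher and 4 of 16 not called. The GC box core GGGCGG lay in 58.7% against 35.7%, AAGATGGC (a YY1 core) in 10.7% against 2.7%, and TATAAA in 10.7% against 13.6%. By gene, the GC box lay in 26 of 44 called higher and 11 of 16 not called. For AAGATGGC these counts were 5 and 1, and for TATAAA 5 and 3. None of these differences between called and uncalled genes was tested.

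Genes of both subunits rose. Of 50 large subunit genes tested, 37 rose (74.0%), with a median log2 fold change of 0.87 and quartiles of 0.36 and 1.09. Of 31 small subunit genes, 25 rose (80.6%), with a median of 0.82 and quartiles of 0.54 and 1.01. The medians differed by 0.05, less than the distance between the quartiles of either subunit. The FPKM summed over large subunit genes was 1.33, 1.33 and 1.35 times that over small subunit genes in DDK livers, against 1.32, 1.38 and 1.33 times in vehicle livers. These ratios overlapped between the groups.

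By liver, the 84 genes together took 3.76%, 3.45% and 2.92% of all fragments with DDK, against 2.32%, 1.86% and 1.85% with vehicle. The treated livers were all above the controls, at 3.38 ± 0.43% with DDK and 2.01 ± 0.27% with vehicle (SD, n = 3 each). Libraries of the same group differed in an ordered way across the family. DDK 1 was the highest DDK liver in 75 of the 81 genes and DDK 3 the lowest in 65, while vehicle 1 was the highest vehicle liver in 76. The median of the 81 genes, set against each gene's vehicle mean, was 1.01, 0.91 and 0.59 in DDK livers, against 0.25, -0.12 and -0.14 in vehicle livers on the log2 scale. Without vehicle 1 the median log2 fold change was 0.95 and 66 genes were higher, with 13.0% of all genes called higher in that fit.

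**Figure D2:**
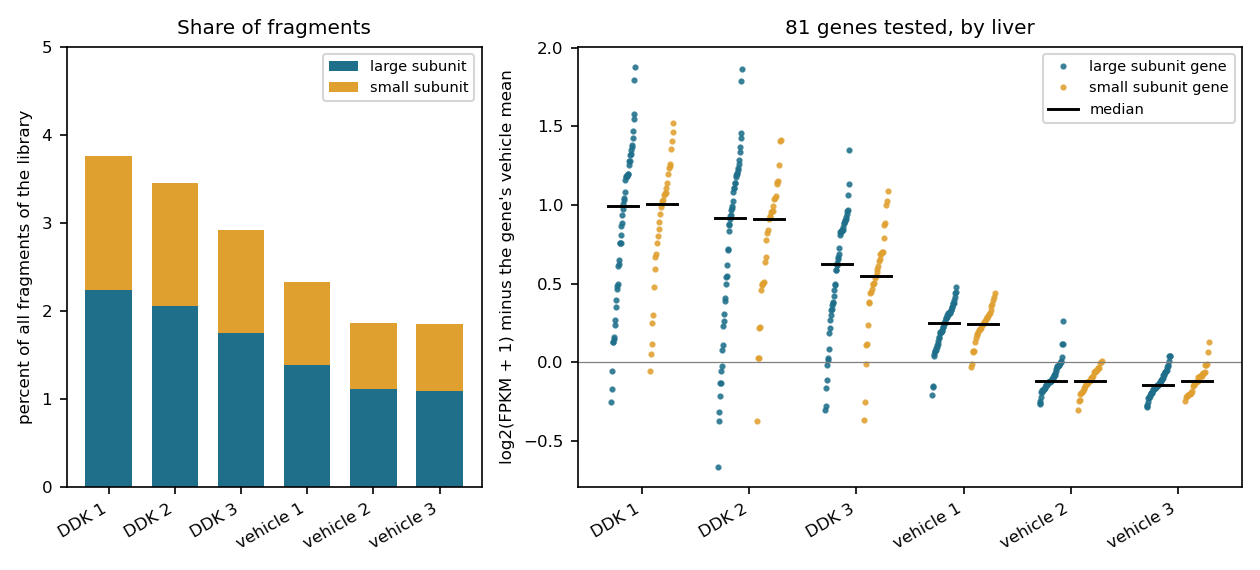
Left, percent of all fragments of each library that fell on large (lower part of a bar) and small subunit genes; right, each tested gene's log2(FPKM + 1) minus that gene's vehicle mean, 1 point per gene, with the median as a line. DDK 1 stands highest and vehicle 1 stands between DDK 3 and the other vehicle livers, in both subunits.

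The size of the change fell with coding length among the 76 core genes. When they were split by length into 4 groups, the shortest (75 to 369 bp) had a median log2 fold change of 1.01, with 17 of 19 genes called higher. The next groups had medians of 0.94 (375 to 453 bp, 18 of 19 called) and 0.85 (456 to 612 bp, 15 of 20). The longest group, 624 to 1257 bp, had a median of 0.40, with 9 of 18 called. Across the 79 tested genes with a coding transcript, log2 fold change had a Pearson r of -0.42 with log2 coding length. The Spearman rho with coding length was -0.50. Both describe genes that share the same 6 libraries. Rpl41 (75 bp) and Rplp2 (345 bp) were short and not called, and Rpsa (885 bp) was long and changed by 1.04.

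Outside the family, the median log2 fold change went from positive in short genes to negative in long ones. Length is here the gene length behind the FPKM. From 2000 to 4000 bp, 34.6% of 3907 other genes were called lower and 6.6% higher, with a median of -0.26. From 4000 to 8000 bp, 36.3% of 3032 were lower and 3.56% higher, with a median of -0.315. On the gene length behind the FPKM, the correlation among the 81 ribosomal protein genes was weaker (Pearson r of -0.25 with its log2, Spearman rho of -0.31). Among other tested genes with an FPKM gene length of at most 500 bp, 58.9% of 73 were called higher and their median log2 fold change was 0.67, against 12 of 14 ribosomal protein genes with a median of 1.03. From 500 to 1000 bp, 42.1% of 542 other genes were higher with a median of 0.36, against 30 of 38 ribosomal protein genes with a median of 0.82. From 1000 to 2000 bp, 18% of 2070 other genes were higher with a median of -0.07, against 16 of 24 ribosomal protein genes with a median of 0.79. In each of these ranges the ribosomal protein genes had the higher median. The median of the 615 other genes of up to 1000 bp minus that of the 4008 over 4000 bp, set against vehicle means, was 0.74, 0.75 and 0.58 in DDK livers, against 0.37, -0.18 and -0.20 in vehicle livers. This difference put vehicle 1 between DDK 3 and the other vehicle livers, as the ribosomal protein genes did.

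Subtracting a curve on gene length from each library lowered the ribosomal median to 0.37, against -0.01 over all genes, and left 43 of 81 genes called higher and 5 called lower, with 16.1% of all genes called higher under that setting. Rpl21 (1.83), Rpl36 (1.19), Rpsa (1.17), Rpl11 (1.13) and Rpl31 (1.06) kept log2 changes above 1 under it. Rps18 (0.70), Rpl28 (0.63), Rpl26 (0.61) and Rpl35a (0.79) were still called, with smaller values. Rps27 (0.28, adjusted p = 0.0708), Rpl39 (0.28, adjusted p = 0.0646) and Rplp1 (0.04, adjusted p = 0.793) lost their calls, and Rplp2 was called lower (-0.68, adjusted p = 0.00448). The curve used the gene length behind the FPKM, which exceeded that of the coding transcript in the genes named above 1. It was 1856 bp against 899 in Rpl21, 783 against 383 in Rpl36 and 1861 against 1599 in Rpsa. In Rpl11 it was 1588 against 833 bp, and in Rpl31 1040 against 487. In Rps27 the lengths were 346 and 345 bp, in Rplp1 468 and 499, and in Rpl39 434 and 612. What this did to the corrected values was not tested. Across 19 settings, the one reported here among them, 39 genes were called higher every time, among them Rpl11, Rpl21, Rpl36, Rps6, Rps18 and Rpsa.

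**Figure D3:**
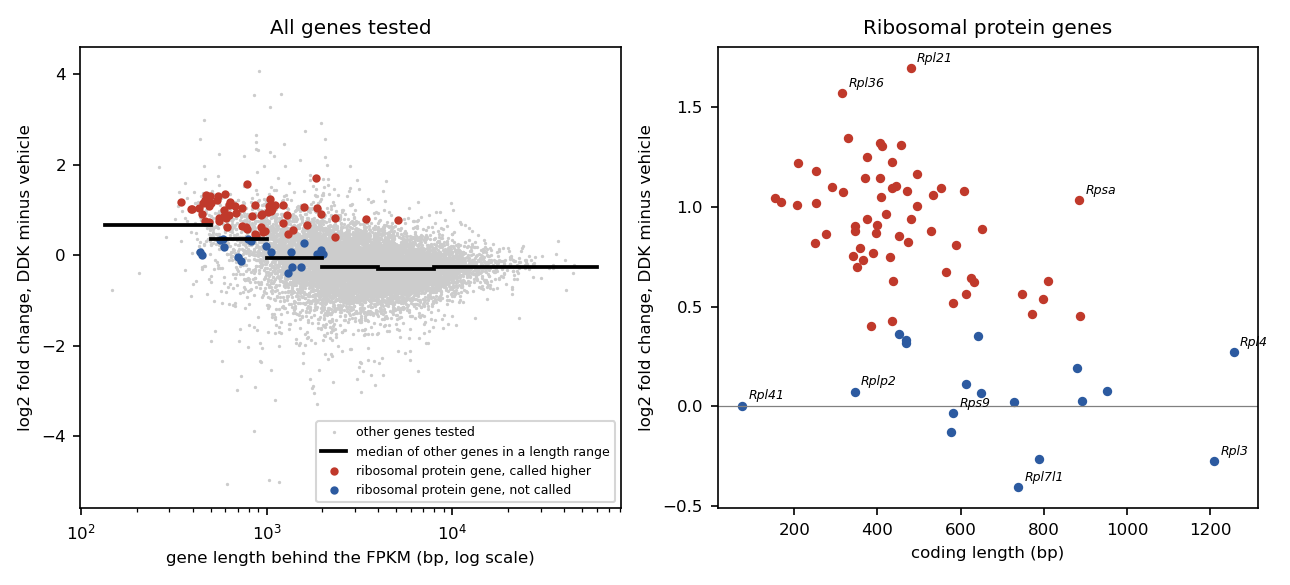
Log2 fold change (DDK minus vehicle) against gene length behind the FPKM for all genes tested (left, log length axis, black lines for the median of other genes in a length range) and against coding length for ribosomal protein genes (right). Other genes of at most 500 bp have a median of 0.67 and those of 4000 to 8000 bp one of -0.31, and most ribosomal protein genes lie above the line of their own range.

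The 8 paralogs carry symbols of core genes with an added l or l1. Of these, 3 were too low to test: Rpl10l, a retrogene known from testis, was listed at 0 in all libraries, Rpl39l, also known from testis, had 0, 0 and 0 fragments in DDK livers and 1, 1 and 0 in vehicle livers, and Rpl3l, the form of striated muscle, had 4, 3 and 1 fragments in DDK livers and 2, 4 and 7 in vehicle livers. Their parents were all tested. Rpl39, a small protein of the exit tunnel, rose, with a log2 fold change of 1.04 ± 0.15 (adjusted p = 0.00142), and Rpl10, which joins the large subunit late in its assembly, was at 0.35 ± 0.15 (adjusted p = 0.0918). Of the 5 paralogs tested, 3 rose, with a median log2 fold change of 0.73, against 59 of 76 core genes (77.6%) and a median of 0.84. The difference in medians was 0.10 and took either sign among the settings tried.

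Rps27l, a target of p53, encodes a close relative of Rps27, a zinc-finger protein of the small subunit. Rps27l had 194.4, 179.5 and 187.6 FPKM in DDK livers, against 113.9, 87.7 and 77.3 FPKM in vehicle livers. All treated livers were higher, and the log2 fold change was 1.02 ± 0.15 (adjusted p = 0.00173). Rps27 had 1154, 1039 and 803.8 FPKM in DDK livers, against 519.0, 420.9 and 377.2 FPKM in vehicle livers (1.18 ± 0.18, adjusted p = 0.0018). Rps27l stood at 16.9%, 17.3% and 23.3% of Rps27 in DDK livers, against 21.9%, 20.8% and 20.5% in vehicle livers. The ratio overlapped between groups (log2 difference -0.15, two-sided exact permutation p = 0.4). The coding sequences are shown to let a reader see how far the reads of the pair can be separated. They come from the GENCODE M21 transcripts without the stop codon (GRCm38, Rps27l on chromosome 9 and Rps27 on chromosome 3), with the bases that differ in capitals.
Rps27l: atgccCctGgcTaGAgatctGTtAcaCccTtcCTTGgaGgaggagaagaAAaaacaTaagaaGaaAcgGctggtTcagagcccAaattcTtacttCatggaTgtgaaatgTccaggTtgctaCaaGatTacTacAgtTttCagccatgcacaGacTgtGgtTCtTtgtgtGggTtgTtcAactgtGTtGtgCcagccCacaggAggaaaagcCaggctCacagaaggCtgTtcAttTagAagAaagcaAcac
Rps27: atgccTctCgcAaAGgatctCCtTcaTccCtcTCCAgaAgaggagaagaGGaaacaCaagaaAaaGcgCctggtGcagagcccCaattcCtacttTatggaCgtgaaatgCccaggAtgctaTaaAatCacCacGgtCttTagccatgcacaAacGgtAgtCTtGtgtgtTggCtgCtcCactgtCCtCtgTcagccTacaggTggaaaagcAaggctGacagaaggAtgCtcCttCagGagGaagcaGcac

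The pair differed at 60 of 252 bases, an identity of 76.2%, and shared no run longer than 11 bp, so a read from one coding sequence carries several mismatches to the other. Identity was lower for Rpl22l1 with Rpl22 (66.9%) and Rpl7l1 with Rpl7 (50.2%).

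Rpl22l1, which Rpl22 holds down in mouse cells, had 130.4, 134.9 and 91.2 FPKM in DDK livers, against 60.5, 84.2 and 67.3 FPKM in vehicle livers. The treated values were all higher, by 0.73 ± 0.18 on the log2 scale (adjusted p = 0.0119), but the call was lost with the length correction (adjusted p = 0.866) and without DDK 2 (adjusted p = 0.0568). Rpl22, an RNA-binding protein of the large subunit needed in lymphocyte development, had 93.1, 87.6 and 81.3 FPKM in DDK livers, against 71.1, 61.9 and 64.6 FPKM in vehicle livers (0.40 ± 0.12, adjusted p = 0.0265). Its groups did not overlap, and its call was lost with TPM (adjusted p = 0.244) and without DDK 1, DDK 2, vehicle 2 or vehicle 3 (adjusted p between 0.0881 and 0.111). Rpl22l1 was at 140.0%, 153.9% and 112.3% of Rpl22 in DDK livers, against 85.2%, 136.0% and 104.1% in vehicle livers. These ratios overlapped (log2 difference 0.34, exact permutation p = 0.2).

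Rpl7l1, the counterpart of a yeast factor that assembles the large subunit, had 22.7, 16.8 and 21.9 FPKM in DDK livers, against 24.4, 29.6 and 28.1 FPKM in vehicle livers. All DDK values were lower, and the log2 fold change of -0.41 ± 0.15 missed the threshold (adjusted p = 0.0524). It was called lower with TPM (adjusted p = 0.0125), the length correction (adjusted p = 0.0423), library weights (adjusted p = 0.0147) and without vehicle 1 (adjusted p = 0.0262). Rpl7 itself rose, with 643.0, 557.0 and 571.2 FPKM in DDK livers, against 434.8, 372.7 and 339.8 FPKM in vehicle livers (0.63 ± 0.14, adjusted p = 0.00817). Rpl7l1 was at 3.53%, 3.02% and 3.83% of Rpl7 in DDK livers, against 5.60%, 7.94% and 8.27% in vehicle livers. The groups were apart (log2 difference -1.06, exact permutation p = 0.1, the smallest that 3 against 3 allows). Adjusted over the 5 pairs compared, p was 0.25 for this pair.

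Rpl6l and Rpl32l are annotated as processed pseudogenes in GENCODE M21, so their values may include fragments of Rpl6 and Rpl32. Rpl6l had 45.6, 47.0 and 48.6 FPKM in DDK livers, against 31.1, 22.4 and 21.1 FPKM in vehicle livers (0.91 ± 0.16, adjusted p = 0.00273). Rpl6 had 304.4, 259.8 and 256.0 FPKM in DDK livers, against 241.4, 182.9 and 177.0 FPKM in vehicle livers (0.46 ± 0.15, adjusted p = 0.0395). The Rpl6 call was lost when any 1 library but vehicle 1 was left out (adjusted p between 0.0517 and 0.15). Treated values were above control values in both. Rpl6l was at 17.4 ± 2.1% of Rpl6 in DDK livers and 12.3 ± 0.5% in vehicle livers (log2 difference 0.48, exact permutation p = 0.1). Rpl32l had 2.41, 0.95 and 2.18 FPKM in DDK livers, against 2.39, 1.14 and 0.99 FPKM in vehicle livers, the lowest mean level of the tested genes. Its groups overlapped (0.18 ± 0.25, adjusted p = 0.578), while Rpl32 rose by 1.14 ± 0.18 (adjusted p = 0.00197). After Rpl32l and Rpl7l1, the core gene Rps15a had the lowest mean FPKM, with 51.3, 45.4 and 36.1 FPKM in DDK livers, against 29.99, 24.7 and 21.9 FPKM in vehicle livers. All DDK values were higher (0.77 ± 0.17, adjusted p = 0.00682). Rps15a FPKM values were divided by a gene length of 5136 bp, against a coding length of 390 bp. The gene held 3818 to 7574 fragments per library.

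**Figure D4:**
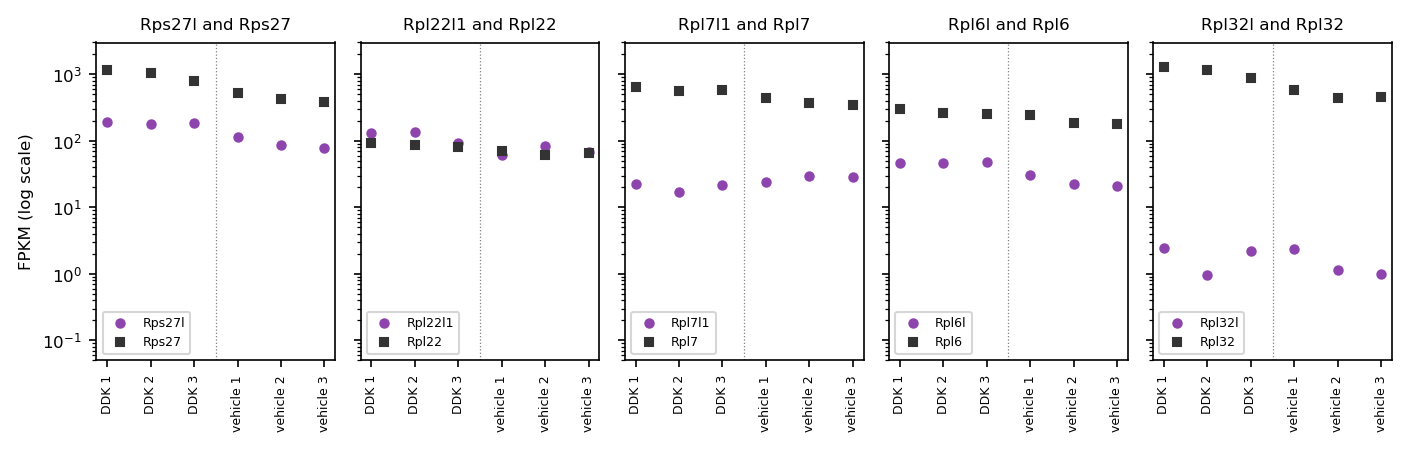
FPKM (log scale) in each liver of the 5 tested paralogs (circles) and their parent genes (squares). Rpl22l1 lies at the level of its parent, the others below theirs, and Rpl7l1 is lower in every DDK liver while Rpl7 is higher.

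Ribosomal protein genes that the symbol rule leaves out were mostly higher too, with 5 of 6 called and a median log2 fold change of 0.68 (2 called with the length correction, and 3 without DDK 1, DDK 2, vehicle 2 or vehicle 3). Fau, a fusion of a ubiquitin-like protein and a small subunit protein, rose by 0.60 (adjusted p = 0.0176). The Fau value was -0.05 with the length correction, and its call was lost without DDK 1, DDK 2, vehicle 2 or vehicle 3 (adjusted p between 0.0548 and 0.0764). Rps3a1, with 0.39, did not pass the test (adjusted p = 0.0522). Of 15 named ribosomal protein pseudogenes, 7 were at 0 in every library, and of the 2 tested Rpl34-ps1 rose (22.1 ± 1.8 FPKM in DDK livers and 13.0 ± 0.7 FPKM in vehicle livers, log2 fold change 0.72, adjusted p = 0.00314), against -0.08 with the length correction.

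Other genes of the translation machinery are set against all genes tested, of which 10.2% were called higher and 30.3% lower. In counts, these were 1093 higher and 3234 lower. They became 1968 and 1643 with median-ratio scaling, and 1722 and 1844 with the length correction. Of 19 other mRNAs with a known TOP tract, 8 rose and 3 fell, with a median log2 fold change of 0.12. Among those that rose was Eef1d, an exchange factor of elongation (0.75, adjusted p = 0.0119, and 0.0546 without vehicle 3). Among those that fell were Nap1l1, a histone chaperone (-0.96), and Eif4b, a helicase cofactor (-0.61). Of 37 initiation factors tested, 6 rose and 10 fell, with a median of -0.12, and with median-ratio scaling 8 rose and 4 fell. Their 27.0% lower is near the share over all genes. Eif1, which guards start codon choice, had a mean of 529.4 ± 2.9 FPKM in DDK livers and 346.8 ± 53.4 FPKM in vehicle livers (0.62, adjusted p = 0.00877), and Eif6, which keeps free large subunits from joining small ones, fell by 0.97 (adjusted p = 0.00197).

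Of 13 elongation and termination factors, 1 rose (Eef1d) and 4 fell (30.8%, near the share over all genes), with a median of -0.27. With median-ratio scaling or the length correction, 2 rose and 1 fell. Eef2, the translocase, had 428.5 ± 32.2 FPKM in DDK livers and 590.2 ± 55.6 FPKM in vehicle livers (-0.46, adjusted p = 0.0238). That call was lost with median-ratio scaling (adjusted p = 0.503) and without DDK 2, DDK 3 or vehicle 3 (adjusted p between 0.0576 and 0.101). Of 66 genes of ribosome assembly and rRNA processing, 11 rose and 15 fell, with a median of -0.07. The balance turned with median-ratio scaling (20 rose and 9 fell) and with the length correction (15 rose and 7 fell). Counts over all genes shifted the same way under both settings, as given above. Dkc1, the pseudouridine synthase of rRNA, fell to 0.98 ± 0.14 FPKM in DDK livers, against 3.86 ± 0.59 FPKM in vehicle livers (-1.29, adjusted p = 0.000662), while Nhp2, a protein of the same complex, rose by 0.77. Of 15 genes of RNA polymerase I, 1 rose (Taf1d, 0.77) and 1 fell (Polr1c, -0.63), and with median-ratio scaling 4 rose and 0 fell.

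In the mTORC1 list, 2 of 26 genes rose and 8 fell (30.8%, near the share of 30.3% over all genes), with a median of -0.28. The balance turned with median-ratio scaling (6 rose and 3 fell) and with the length correction (5 rose and 3 fell). Here too, counts over all genes shifted the same way. The translation repressor Eif4ebp3 rose to 38.1 ± 4.5 FPKM in DDK livers, against 11.4 ± 3.7 FPKM in vehicle livers (1.70, adjusted p = 0.000699). Its relative Eif4ebp2 fell to 2.79 ± 1.15 FPKM in DDK livers, against 31.5 ± 19.2 FPKM in vehicle livers (-2.90, adjusted p = 0.00195). These are mRNA levels, and the activity of the kinase was not measured.

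Mitochondrial ribosomal proteins, which build the separate ribosome of that organelle, held many genes that rose, beside 10.2% of all genes tested. Of 78 genes, 41 rose and 4 fell, with a median of 0.40. Mrps35 (1.11) and Mrpl52 (1.0, but 0.21 and not called with the length correction) had the largest increases, and Mrps12 (-0.95) and Mrpl3 (-0.68) the largest decreases. The count of 41 was 19 without DDK 1, 21 without DDK 2 or vehicle 2, and 18 without vehicle 3. Over all genes, the share called higher also fell in these fits. It was 5.89% without DDK 1, 5.66% without DDK 2, 6.8% without vehicle 2 and 6.16% without vehicle 3. Counts called higher also moved in the other lists when 1 library was left out, from 1 to 6 for initiation factors, from 4 to 12 for assembly and from 1 to 8 for other TOP mRNAs, with the low ends without DDK 1, DDK 2 or vehicle 3. Those lower ranged from 5 to 14 for initiation factors, from 6 to 21 for assembly and from 2 to 11 for the mTORC1 list, with the low ends without DDK 2 and the high ends without vehicle 1. Genes called lower over all genes moved too, from 3234 to 1746 without DDK 2 and to 4127 without vehicle 1.

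**Figure D5:**
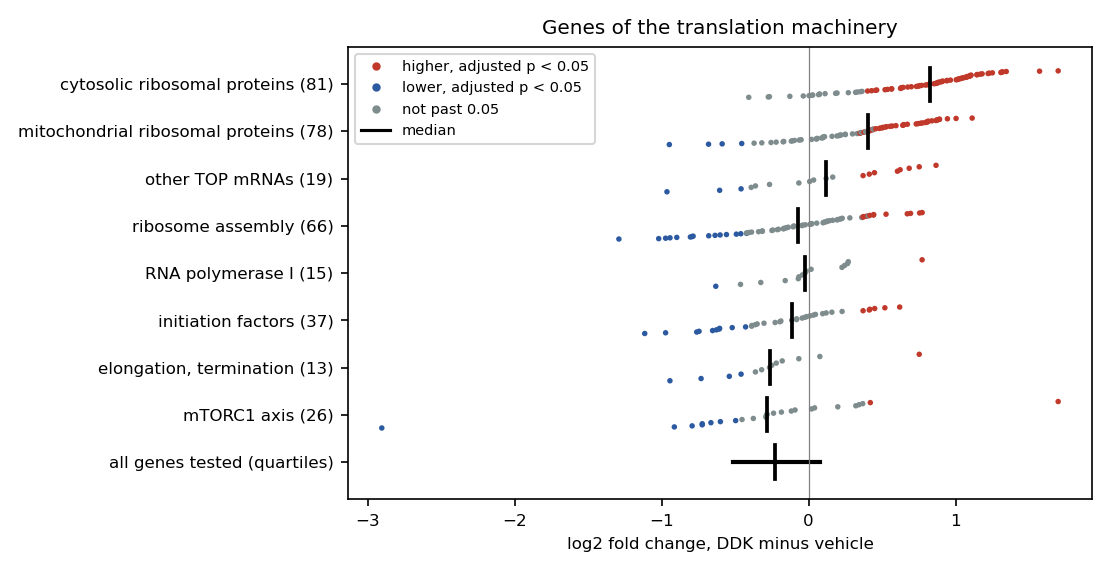
Log2 fold change (DDK minus vehicle) of each tested gene in the lists of the translation machinery, 1 point per gene with the number tested in brackets, a black line for each list's median and, at the bottom, the median and quartiles of all genes tested. Cytosolic ribosomal proteins have a median of 0.82 and mitochondrial ones 0.40, and the other lists lie between -0.28 and 0.12.

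Markers of liver cell types are set against the same shares over all genes tested, 10.2% higher and 30.3% lower. Of 18 hepatocyte markers 7 rose and 1 fell, and their summed FPKM ranged from 92620 to 99380 in DDK livers, against 57040 to 73190 in vehicle livers. Of 18 macrophage and Kupffer cell markers 0 rose and 12 fell, with a median log2 fold change of -1.37 and a summed FPKM of 277.5 to 559.6 in DDK livers, against 805.9 to 1254 in vehicle livers. Of 10 stellate cell markers 7 fell (61.7 to 86.1 summed FPKM in DDK livers, against 139.4 to 183.8 in vehicle livers), and of 10 endothelial markers 4 fell, a share near that of all genes (46.4 to 60.8 summed FPKM in DDK livers, against 72.0 to 104.9 in vehicle livers). Lymphocyte markers did not separate the groups: summed T and NK cell markers ranged from 7.3 to 16.4 FPKM in DDK livers, against 4.9 to 13.0 in vehicle livers, and B and plasma cell markers from 2.6 to 5.0, against 3.8 to 4.9. Neutrophil markers (1 of 2 tested fell, 2.4 to 8.3 against 11.2 to 13.7), bile duct markers (1 of 6 rose, 41.2 to 67.6 against 51.2 to 74.0) and red blood cell markers (2 of 5 rose and 1 fell, 368.4 to 726.2 against 391.5 to 530.0) complete the set. The neutrophil genes Ly6g, Camp, Ngp and Cxcr2 were at 0 in at least 1 library, as was the red cell gene Slc4a1. The part of cell make-up in the ribosomal protein result was not tested.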

How the data were processed

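Liver RNA of 3 DDK and 3 vehicle mice was measured, with libraries assigned to groups by their treatment label. The authors deposited FPKM per gene symbol; they name GRCm38 (mm10) as genome build, per the submitters' processing notes. The aligner, counter and gene models behind it are not given in the sources used here. Per the labels' protocols, RNA came from an RNeasy Plus kit and libraries from the NEBNext Ultra kit, which does not mark strand, so a gene and an overlapping antisense gene cannot be told apart. Fragments and gene lengths were recovered from the steps between FPKM values (99.99% of 16573 genes whole within 0.01 fragment). With limma 3.58.1 (R 4.3.3), log2(FPKM + 1) was fitted over genes with FPKM of at least 0.5 in 3 libraries, with a trended prior and Benjamini-Hochberg adjustment over all genes; the same scale underlies all log2 fold changes, which understate changes of low genes. The code was tested on simulated data. Paralog ratios were compared with two-sided exact permutation tests. Annotation came from GENCODE M21 and RefSeq, and pseudogene copies from BLAST+ 2.17.0. Members and lists were chosen with earlier results of these data known. The text names every paralog and its parent, the 8 largest and 8 smallest changes and the 3 highest and 3 lowest mean levels, less those not reported. In the other lists it names some of the genes called, which need not be the most changed of their list. Rpl11, Rpsa, Rps6, Rps27a, Rps3a1 and the stalk genes were named for their known roles after their values were seen. The p-values measure the spread between these samples. Alternatives covered pseudocount, filter, scaling, gene length, library weights, test and single libraries. All columns of per-sample values were used. Values of a few named genes are not reported here, although the counts, medians and sums include them.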

Additional observations from a re-analysis of the deposited data

How the results depend on the processing

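The count of 62 ribosomal protein genes called higher stayed within 43 to 68 under every alternative (53 to 66 with 1 library left out, 62 with the replicate block). Over all genes, alternatives called 513 (threshold 0.01) to 1968 (median-ratio scaling) genes higher and 1520 (threshold 0.01) to 5111 (TPM) lower. The count called lower, 0, was 3 with quantile normalization, 4 with TPM, 5 with the length correction, 2 with library weights and 1 at a threshold of 0.1, and 0 to 2 with 1 library left out. The median log2 fold change of 0.82 was 1.13 with median-ratio scaling, 0.60 with quantile normalization, 0.59 with TPM and 0.37 with the length correction (0.75 to 0.95 with 1 library left out). Minus the median of all genes, 1.05 became 0.60 with quantile normalization and 0.37 with the length correction. Large minus small subunit, 0.05, was 0.018 without a filter, 0.14 with quantile normalization, 0.17 with the length correction and 0.017 with library weights (0.007 to 0.086 with 1 library left out). Core minus paralog, 0.10, was 0.65 without a filter, -0.16 with quantile normalization, 0.33 with the length correction and 0.25 with library weights (-0.091 to 0.323 with 1 library left out).

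Signs turned in 9 of the 81 genes with the length correction, 4 with median-ratio scaling, 9 with quantile normalization and 8 with TPM. With the length correction these were Rpl10 (-0.016), Rpl10a (-0.11), Rpl23a (-0.26), Rpl32l (-0.38), Rpl41 (-0.73), Rplp2 (-0.68), Rps13 (-0.21), Rps2 (-0.03) and Rps27a (-0.03), and outside the family Fau (-0.046), Rpl34-ps1 (-0.075) and Rpl36al (-0.13). With median-ratio scaling they were Rpl3 (0.035), Rpl9 (0.18), Rps4x (0.043) and Rps9 (0.28, and 0.067 with library weights). With quantile normalization and with TPM, Rpl41 (-0.34 and -0.23), Rpl5 (-0.015 and -0.21), Rps3 (-0.072 and -0.21), Rplp0 (-0.29 and -0.16), Rplp2 (-0.30 and -0.16), Rps2 (-0.20 and -0.04) and Rpl10a (-0.01 and -0.17) turned, as did Rpl4 and Rpl23a with the first and Rpl15 with the second. With 1 library left out, Rpl41 ran from -0.059 to 0.07, Rpl5 from -0.022 to 0.109, Rps3 from -0.036 to 0.088 and Rps9 from -0.113 to 0.072. The causes were not tested.

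Same-numbered livers did not deviate together from their group means (correlations 0.14, -0.15 and 0.06). With so few livers per group, these correlations cannot show whether animals were paired by number, and the labels do not say. Rpl10l, Rpl39l and Rpl3l held too few fragments for a comparison at this depth.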
